A study of Arabidopsis thaliana with 4 samples.

Results

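The transcripts described are those of 8 calmodulin-like genes of Arabidopsis thaliana, TCH2 (also CML24), TCH3 (also CML12), CML23, CML37, CML38, CML39, CML42 and CML43. They were chosen by gene identifier, and all 8 were found among the 37885 genes of the count table. The samples were 4 libraries of poly(A)-selected RNA from whole 7-day-old prt6-1hyt1-1 double mutant seedlings, grown under continuous light on half-strength MS agar that held no sucrose, and harvested untreated. The labels call them biological replicates 1 to 4. Every library carries both mutations, and no Col-0, prt6-1 or ERFVII-deficient prt6-1 library was analysed here, so no effect of a genotype or of touch or low oxygen was measured. The title of replicate 4 spells the genotype prt-16hyt1-1, which was read as a misprint, and the deposited columns say hup40 where the labels say hyt1. The data allow the levels of the 8 transcripts, and their spread over the 4 libraries, to be described.

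Calmodulin and calmodulin-like proteins are calcium sensors. They bind calcium through EF-hands, helix-loop-helix motifs whose loop holds the ion, and then change shape and act on partner proteins. In Arabidopsis the TCH genes were found as transcripts that rise within minutes of touch, and calcium rises in the cytosol after mechanical stimulation, wounding, cold and oxygen shortage. CML38 is known as a hypoxia-induced gene whose protein joins RNA granules in low oxygen. In prt6 mutants the group VII ethylene response factors (ERFVIIs), which drive many hypoxia genes, are not degraded through the N-degron pathway when oxygen is present.

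Code for EF-hand loops is what the 8 genes share most plainly, and the loops show which of them are close relatives. The loops were located with the PROSITE EF-hand pattern in the translated coding sequences of the TAIR10.1 annotation. TCH3 had 6 loops in 324 residues, TCH2 and CML23 had 4 each in 161 and 157 residues, and CML37, CML38, CML39, CML42 and CML43 had 3 each in 159 to 191 residues. Of the 8 genes, 7 had a coding sequence in 1 exon, as did 30 of 42 other calmodulin-like genes and 0 of 7 calmodulin genes. The first 4 loops of TCH3 are printed here because they repeat each other, with 36 bases for 12 residues, 5′ to 3′, and in capitals the codons of loop positions 1, 3, 5 and 12, which hold calcium.
TCH3 loop 1: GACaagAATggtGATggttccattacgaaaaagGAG
TCH3 loop 3: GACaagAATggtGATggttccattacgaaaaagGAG
TCH3 loop 2: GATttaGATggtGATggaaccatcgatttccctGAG
TCH3 loop 4: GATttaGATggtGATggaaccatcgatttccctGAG
Loops 1 and 3 were identical at 36 of 36 bases, as were loops 2 and 4, while loops 5 and 6 matched loops 1 and 2 at 30 of 36 bases each. The longest run found more than once inside the TCH3 transcript was 57 bases.

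The other genes fell into pairs of relatives. CML42 and CML43 shared 80.9% of aligned residues, CML38 and CML39 shared 79.9%, and TCH2 and CML23 shared 76.4%. CML37 shared 52.9% with CML38 and 52.5% with CML39. TCH3 was nearest to calmodulin itself, with 63.8% identity to the CAM2 protein over 149 aligned residues, of the 324 in TCH3. The other members had between 30.8% and 43.6%. The loops below show these pairs in their bases, each pair by a loop at which it matched best.
TCH2 loop 3: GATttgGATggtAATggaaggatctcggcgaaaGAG
CML23 loop 3: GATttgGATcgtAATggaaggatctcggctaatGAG
CML38 loop 3: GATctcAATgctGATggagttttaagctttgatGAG
CML39 loop 3: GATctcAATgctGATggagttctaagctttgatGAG
CML42 loop 1: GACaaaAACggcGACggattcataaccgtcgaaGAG
CML43 loop 1: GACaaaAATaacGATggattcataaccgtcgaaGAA
These matched at 33, 35 and 31 of 36 bases for the pairs of TCH2, CML38 and CML42. The other loops matched at 29 to 32 bases for TCH2 and CML23, at 29 and 33 for CML38 and CML39, and at 28 and 31 for CML42 and CML43. Between their transcripts the longest shared run was 34 bases, for CML38 and CML39, and 0 of the 75-base words of any member transcript occurred in a transcript of another gene.

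Several members lie beside another gene of the family. TCH2 (AT5G37770, chromosome 5, 14997514 to 14999619, minus strand, TAIR10.1) is followed at higher coordinates by CAM1, 4846 bases away, as the next protein-coding gene. CML23 (AT1G66400, chromosome 1, 24770419 to 24771393, minus strand) has CAM4 in the same place, 2719 bases away. TCH3 (AT2G41100, chromosome 2, 17137037 to 17139700, plus strand) stands between the calmodulin-like gene AT2G41090, 37 bases before it, and CAM2, 482 bases after it. CML39 (AT1G76640, chromosome 1, 28765254 to 28765866) and CML38 (AT1G76650, chromosome 1, 28766750 to 28768138) follow each other on the minus strand, 883 bases apart. CML37 (AT5G42380, chromosome 5, 16942447 to 16943820, minus strand), CML42 (AT4G20780, chromosome 4, 11133095 to 11134075, minus strand) and CML43 (AT5G44460, chromosome 5, 17916993 to 17918001, plus strand) have no calmodulin gene next to them. CML42 lies 8 bases from AT4G20770 on the same strand.

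**Figure D1:**
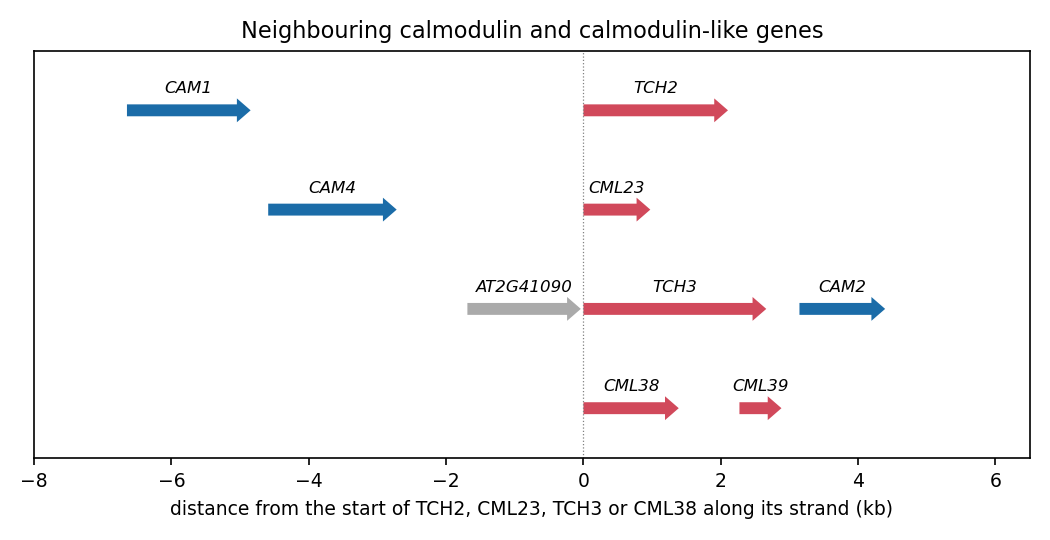
Gene bodies from start to end of annotation at 4 loci, as distance in kb from the start of TCH2, CML23, TCH3 or CML38 along its own strand (members red, calmodulin genes blue, another calmodulin-like gene grey). All genes of a locus point the same way, and CAM1, CAM4 and CAM2 flank TCH2, CML23 and TCH3.

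Exons of TCH2 and TCH3 overlap genes on the opposite strand. AT5G37760 shares 419 exon bases with TCH2 and had 3, 1, 1 and 0 counts in replicates 1 to 4. AT2G41105 shares 272 exon bases with TCH3 and had 4, 2, 5 and 2 counts, and the non-coding AT2G09220 shares 243 and had 0 counts in each library. The kit was directional, but the strand setting of the counting is not given in the sources used here.

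The promoters of TCH2 and CML23 are shown because these relatives both hold CGCG, the core of the site of calmodulin-binding CAMTA transcription factors, at 2 places. The 250 bases before the start of TCH2 and of CML23 were free of exons of other genes. Capitals mark CGCG and, in CML23, the W-box core TTGAC read on the other strand as GTCAA.
TCH2 promoter, chr5:14999620-14999869, minus strand: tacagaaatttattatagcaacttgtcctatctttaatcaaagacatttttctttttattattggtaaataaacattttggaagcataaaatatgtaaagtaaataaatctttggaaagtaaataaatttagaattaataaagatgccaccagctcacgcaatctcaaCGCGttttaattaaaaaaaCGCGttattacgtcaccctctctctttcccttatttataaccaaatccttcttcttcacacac
CML23 promoter, chr1:24771394-24771643, minus strand: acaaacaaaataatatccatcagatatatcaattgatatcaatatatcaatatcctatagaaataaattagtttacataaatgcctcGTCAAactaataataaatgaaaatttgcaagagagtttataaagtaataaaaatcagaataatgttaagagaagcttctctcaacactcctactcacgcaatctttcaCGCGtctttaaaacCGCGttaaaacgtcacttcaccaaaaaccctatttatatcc
CGCG began at -82 and -63 from the gene start in TCH2 and at -55 and -41 in CML23. The longest run common to both promoters was CTCACGCAATCT, 12 bases just before the first CGCG of each. Runs of 12 bases were also shared by CML38 with CML23 and with CML42. In the window from 250 bases before to 50 after the start, CGCG was found in 2 of 8 members and in 13.0% of 27443 protein-coding genes, and at least 2 times in 2.37% of them. TTGAC, the core that WRKY factors bind, was found in CML23, CML38, CML42 and CML43 and in 50.5% of genes, on either strand. The G-box CACGTG was found in 0 of 8 members and 7.68% of genes. The core of the hypoxia-responsive promoter element was found in 0 of 8 members and 1.04% of genes. The 250 bases before TCH3 held exons of other genes, unlike those before the other members. These are matches of letters in a short window, and no binding was measured.

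The libraries held 24743656, 26155431, 25804589 and 24947145 counts in replicates 1 to 4, of which the 8 genes together took 6133, 5612, 6919 and 5874. The leaf transcripts RBCS1A and LHCB1.3 averaged 18036 and 20736 TPM and the root transcripts PYK10 and IRT1 4321 and 136 TPM, so both organs of the labelled whole seedlings were present. TPM is a length-normalised level, scaled to the same total in each library and computed from the count plus 0.5 over merged exon length. PRT6 had 1659, 2016, 1858 and 1841 counts, which cannot check the label, since reads on either side of a mutation are counted.

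Levels of the 8 transcripts ran from TCH3, at about 101 TPM, to CML39, with 1 or 2 counts in a library. TCH3 alone made up 54.7% ± 0.425 (SD, n = 4) of the summed TPM of the 8, TCH2 18.5% ± 1.80, CML42 12.1% ± 1.75 and CML38 8.11% ± 0.312. The summed level was 184 ± 15.7 TPM (SD, n = 4). In order of mean TPM the genes were TCH3, TCH2, CML42, CML38, CML23, CML43, CML37 and CML39. These are bulk seedlings, so expression in fewer cells and less RNA per cell cannot be told apart.

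TCH3, the touch-induced gene with calmodulin-like repeats, had 4143, 3890, 4774 and 4056 counts in replicates 1 to 4. Its level was 102, 90.5, 112 and 99.0 TPM in these libraries, with a mean of 101 ± 8.86 TPM (SD, n = 4). It was highest in replicate 3 and lowest in replicate 2, and its mean exceeded that of 91.8% of the 19940 genes that passed the expression filter. With the length of the longest transcript in place of merged exons the mean was 110.0 TPM.

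TCH2, a touch-induced sensor with a role in flowering time and nitric oxide, had 1260, 952, 1280 and 1010 counts, or 39.5, 28.1, 38.1 and 31.3 TPM in replicates 1 to 4. Replicates 1 and 3 were close to each other and above replicates 2 and 4, and the mean was 34.2 ± 5.43 TPM (SD, n = 4). CML23, its relative, which shares those roles, had 142, 118, 149 and 125 counts, or 9.19, 7.20, 9.16 and 8.004 TPM. By TPM its libraries stood in the order of those of TCH2, with replicate 2 lowest, and its mean was 8.39 ± 0.965 TPM.

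CML38, the hypoxia-induced member, had 238, 214, 286 and 236 counts in replicates 1 to 4. These are 15.1, 12.8, 17.2 and 14.8 TPM, with a mean of 15.0 ± 1.81 TPM (SD, n = 4), above 53.0% of genes past the filter. Replicate 3 was highest and replicate 2 lowest. Of the 44 other low-oxygen genes listed, 26 had a higher mean TPM than CML38 and 18 a lower one, around a list median of 17.9 TPM. All 23 listed touch and wounding genes had a lower mean TPM than TCH3, and 6 of them a higher one than TCH2.

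The neighbours and relatives of CML38 were scarce. CML37, known for roles in jasmonate signalling and drought, had 8, 14, 8 and 10 counts, or 0.389, 0.6255, 0.370 and 0.475 TPM in replicates 1 to 4. CML39, known for a part in early seedling growth, had 2, 1, 1 and 1 counts. The 5 counts of CML39 have an exact Poisson 95% interval of 1.62 to 11.7 counts. Its mean was 0.175 TPM with 0.5 added to each count and 0.125 TPM without, so that part of its level comes from that addition. Neither gene passed the expression filter. Per length and over all counts, CML38 stood at 120 times CML39 (exact binomial 95% interval 51.4 to 371) and at 33.7 times CML37 (24.6 to 47.5). These intervals cover counting error only.

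CML42, known for roles in trichome branching and the response to herbivores, had 297, 371, 369 and 386 counts in replicates 1 to 4. Its level was 19.1, 22.4, 22.5 and 24.5 TPM in these libraries. It was lowest in replicate 1, unlike the touch genes, and its mean was 22.1 ± 2.25 TPM (SD, n = 4). CML43, its relative and an immune-response gene, had 43, 52, 52 and 50 counts, or 2.71, 3.08, 3.11 and 3.11 TPM. It too was lowest in replicate 1, and the other libraries were almost level, with a mean of 3.00 ± 0.195 TPM.

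**Figure D2:**
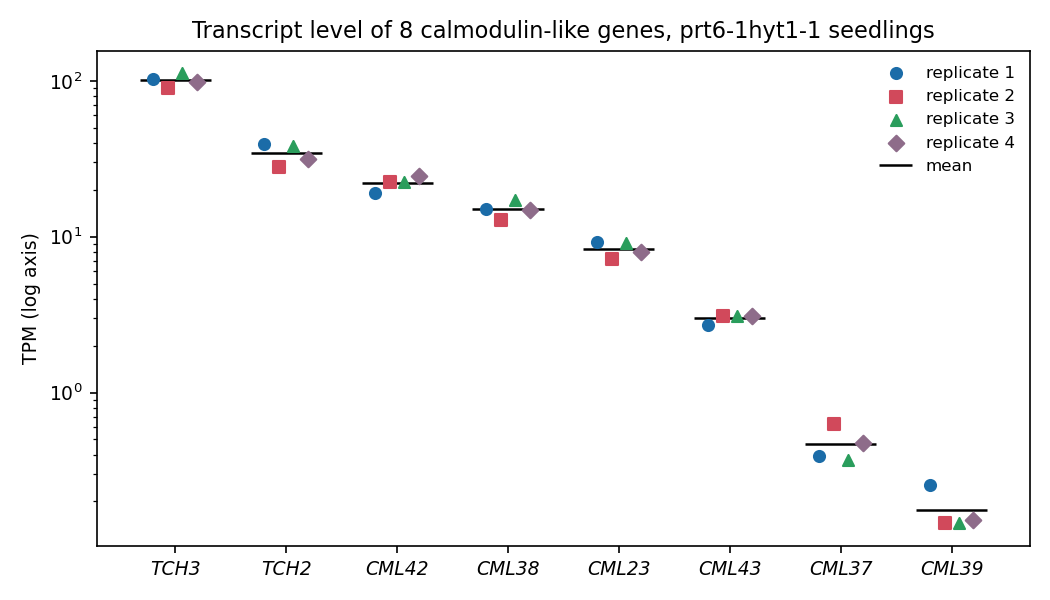
TPM on a log axis of each of the 8 genes in each of the 4 replicate libraries, with a bar at the mean of 4. TCH3 averages 101 TPM and CML39 0.175 TPM, and for neighbouring genes the order of the means holds within every library.

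The order of the genes was the same in all 4 libraries. Ratios of TPM within a library were compared for 11 pairs, those of relatives and those next to each other in the order. Every ratio had 1 sign in 4 of 4 libraries, with the smallest mean between CML42 and CML38, at 0.56 ± 0.24 on the log2 scale (SD, n = 4). TCH2 over CML42 was 0.62 ± 0.35, with 1.05 in replicate 1 and 0.32 in replicate 2. TCH3 over TCH2 was 1.57 ± 0.14, TCH2 over CML23 2.02 ± 0.07 and CML42 over CML43 2.88 ± 0.07. The exact two-sided sign-flip permutation test gave 0.125 for each pair, and 0.125 after Benjamini-Hochberg adjustment over the 11. That is the smallest p that 4 libraries allow, so no pair could pass 0.05, though each mean exceeded its SD. The order was also the same without length normalisation. The size of a ratio depends on the length used for each gene. With the longest transcript length TCH2 over CML23 was 2.23 and TCH2 over CML42 0.83, while CML42 over CML43 stayed at 2.88.

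Among the 15 pairs of the 6 genes past the filter, the spread of the log2 ratio was set against the spread expected from counting error. It was below that spread in 8 of the 15, relatives and unlike members among them. CML42 over CML43 had an SD of 0.07 beside 0.22 expected, the lowest relative spread of the 15. TCH2 over CML23 followed with 0.07 beside 0.13, and TCH3 over CML38 with 0.05 beside 0.10. The 3 pairs with the widest relative spread were TCH2 with CML42 (0.35 beside 0.09), TCH2 with TCH3 (0.14 beside 0.05) and TCH3 with CML42 (0.21 beside 0.08). Low counts widen the expected spread for CML43 and CML23, so a difference in their ratios is less readily seen, and no test was made between the pairs. Pairs of other genes were not examined, and the 15 pairs share the same 6 genes, so the count of 8 says little about the members.

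TCH2, TCH3, CML38 and CML42, varied between the replicate libraries beyond counting error. A chi-square test of homogeneity over the 4 libraries was applied to every gene with at least 10 expected counts per library, with Benjamini-Hochberg adjustment over all 20687. It called 42.7% of them, and 4 of the 6 members tested. High counts make the call easier, and a share of this size in 6 genes says little about the members beyond the call of each. The adjusted p was 5.25e-17 for TCH2, 3.65e-23 for TCH3, 0.0199 for CML38 and 0.0265 for CML42. It was 0.213 for CML23 and 0.872 for CML43. CML37 and CML39 had too few counts to be tested.

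The call of TCH2 and of TCH3 was made whichever library was left out. That of CML38 was lost without replicate 2 (adjusted p 0.1299) or replicate 3 (0.396), among alternatives that ranged from 0.0109 to 0.396. That of CML42 was lost without replicate 1 (adjusted p 0.749) or replicate 4 (0.0541), among alternatives from 0.0147 to 0.749.

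In size, the differences between libraries were modest. The highest library stood at 1.37 times the lowest for TCH2, 1.36 times for CML38, 1.28 times for CML23 and CML42, 1.25 times for TCH3 and 1.18 times for CML43, in CPM, counts scaled to library size. The biological coefficient of variation (BCV), which edgeR estimates after allowing for counting error, was 0.0910 for TCH2, where the fitted trend at its abundance lay at 0.0606. That excess of 0.0304 was larger than in 95.7% of genes past the filter. TCH3 had a BCV of 0.0664 beside a trend of 0.0564, and CML38 and CML42 stood 0.00316 and 0.000961 above the trend. CML23 and CML43 stood below it. In all, 4 of 6 members were above the trend, against 34.1% of all 19940 genes. Without replicate 3 the count was 2 of 6, TCH2 and CML42, against 31.9% of all genes. With dispersions from DESeq2 it was 2 of all 8, against 24.4%. Under both settings the members' share was near that of all genes.

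The libraries stood apart for the members in 2 ways. By CPM, TCH2, TCH3, CML23 and CML38 were all lowest in replicate 2, as were 23.1% of all genes past the filter. TCH3, CML23, CML38 and CML43 were highest in replicate 3, as were 26.1% of genes. CML42 and CML43 were lowest in replicate 1, as were 28.5% of genes. By TPM, CML23 was instead highest in replicate 1, at 9.193 against 9.160 in replicate 3. CML43 was by TPM highest in replicate 4, at 3.112 against 3.108 in replicate 3. Neither CML23 nor CML43 was called variable. In deviations from its own mean log2 CPM, TCH2 stood at 0.20, -0.26, 0.20 and -0.14 in replicates 1 to 4. TCH3 stood at 0.18 in replicate 3 and -0.14 in replicate 2, CML38 at 0.24 and -0.21, and CML23 at 0.16 and -0.20. In replicate 1, CML42 stood at -0.23 and CML43 at -0.16, while TCH2 stood at 0.20 and CML23 at 0.12. The median over the 6 members past the filter was 0.0020, -0.17, 0.17 and -0.04 in replicates 1 to 4, beside values within 0.0011 of 0 for all genes. The root transcript IRT1 stood at 0.28 in replicate 1 and -0.50 in replicate 3. PYK10 stood at -0.13 in replicate 1 and 0.16 in replicate 2, while the leaf transcripts RBCS1A and LHCB1.3 stayed between -0.08 and 0.05. A link between organ transcripts and members was not tested.

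**Figure D3:**
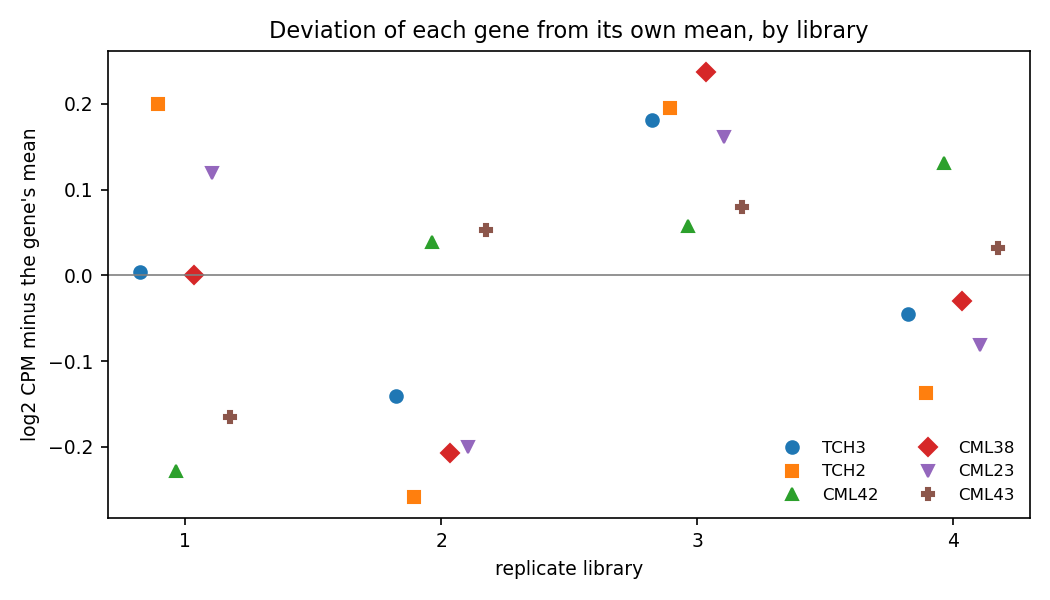
Difference of log2 CPM from the gene's own mean over 4 libraries, for the 6 genes that passed the expression filter, by replicate. TCH2, TCH3, CML23 and CML38 lie between -0.14 and -0.26 in replicate 2 and between 0.16 and 0.24 in replicate 3, and CML42 and CML43 lie lowest in replicate 1.

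The adjacent calmodulin genes stayed nearer to their own means. CAM1, beside TCH2, had 2781, 3026, 2855 and 3069 counts in replicates 1 to 4, and its deviations stayed between -0.05 and 0.07 on the log2 scale. CAM4, beside CML23, had 2859, 3130, 2979 and 3155 counts and stayed between -0.06 and 0.07. CAM2, beside TCH3, had 1328, 1484, 1460 and 1312 counts and stayed between -0.08 and 0.06, with replicate 2 above its mean. The chi-square test still called CAM1 (adjusted p 0.0102), CAM4 (0.0166) and CAM2 (0.0313). It did not call CML23, which had far fewer counts than CAM4, so depth also enters that comparison. AT2G41090, on the other side of TCH3, had 2690, 2685, 2375 and 2547 counts, with the lowest value in replicate 3, where TCH3 was highest. Its deviation there was -0.12, against 0.18 for TCH3.

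Across the family the 7 calmodulin genes were abundant and the calmodulin-like genes spread widely. CAM3 averaged 176 ± 3.58 TPM (SD, n = 4), CAM1 157 TPM, CAM5 115 TPM, CAM4 98.8 TPM, CAM6 93.4 TPM, CAM2 92.4 TPM and CAM7 54.4 TPM. TCH3 was the only member within their range, above 4 of the 7 and below 3. Other calmodulin-like genes were led by AT2G41090 at 110 TPM, AT2G41410 at 103 TPM, AT1G18210 at 74.9 TPM, CAM9 (also CML9) at 62.3 TPM and MSS3 at 59.2 TPM. Of the 42, 6 had no count and 25 passed the filter, and the median of all 42 was 2.34 TPM. Among the 51 calmodulin and calmodulin-like genes with a count, TCH3 came in place 6, TCH2 in 17, CML42 in 18, CML38 in 23, CML23 in 28, CML43 in 34, CML37 in 45 and CML39 in 47. The calmodulin genes encode closely related proteins. Their transcripts were not searched for words shared with each other, so how reads were divided between them is uncertain.

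**Figure D4:**
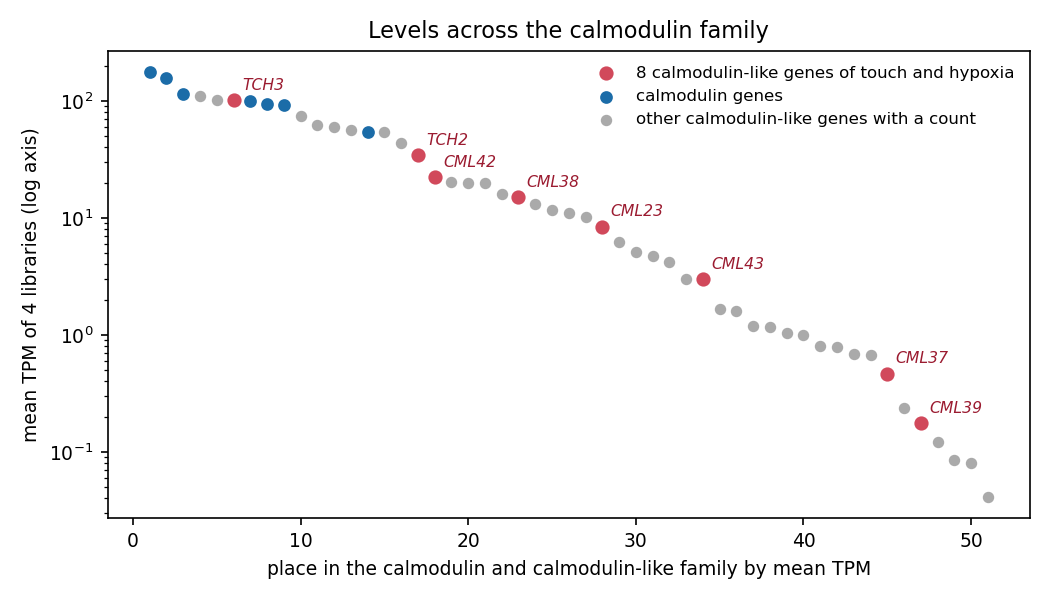
Mean TPM over 4 libraries on a log axis against place in the order, for the 51 calmodulin and calmodulin-like genes with a count (the 8 members red, calmodulins blue, others grey). TCH3 at 101 TPM lies among the calmodulins, and CML37 and CML39 lie below 1 TPM.

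Of the related lists, the touch and wounding genes shared with the members a negative median in replicate 2 and a positive one in replicate 3. In replicate 1 the median of the members was near 0, at 0.0020, beside 0.12 for the touch and wounding genes. The sign for the members in replicates 1 and 4 changed with the replicate left out. The chi-square test called 14 of 20 touch and wounding genes past the filter, 29 of 43 low-oxygen genes, 5 of 7 calmodulins and 5 of 25 other calmodulin-like genes, beside 42.7% of all genes. Touch and wounding genes had median deviations of 0.12, -0.12, 0.10 and -0.11 in replicates 1 to 4. Of the 20, 8 were lowest in replicate 2 and 7 in replicate 4, beside 23.1% and 22.4% of all genes. Replicate 1 was highest for 9 of them, as was replicate 3 for another 9, beside 29.0% and 26.1% of all genes. Of the 6 members past the filter, 0 were lowest in replicate 4 and 1 was highest in replicate 1. For all genes these shares were 22.4% and 29.0%, and 6 genes are too few to stand apart from them. Low-oxygen genes had -0.15, 0.05, 0.11 and -0.03. Of the 43, 26 were lowest in replicate 1 and 4 in replicate 2, beside 28.5% and 23.1% of all genes. In replicate 3, where CML38 was also highest, 23 of the 43 were highest, beside 26.1% of all genes. CML38, itself a low-oxygen gene, was lowest in replicate 2 and lay at its own mean in replicate 1. Calmodulins had medians between -0.05 and 0.07. The deviations are relative to each gene's own mean, so those in different libraries depend on each other.

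**Figure D5:**
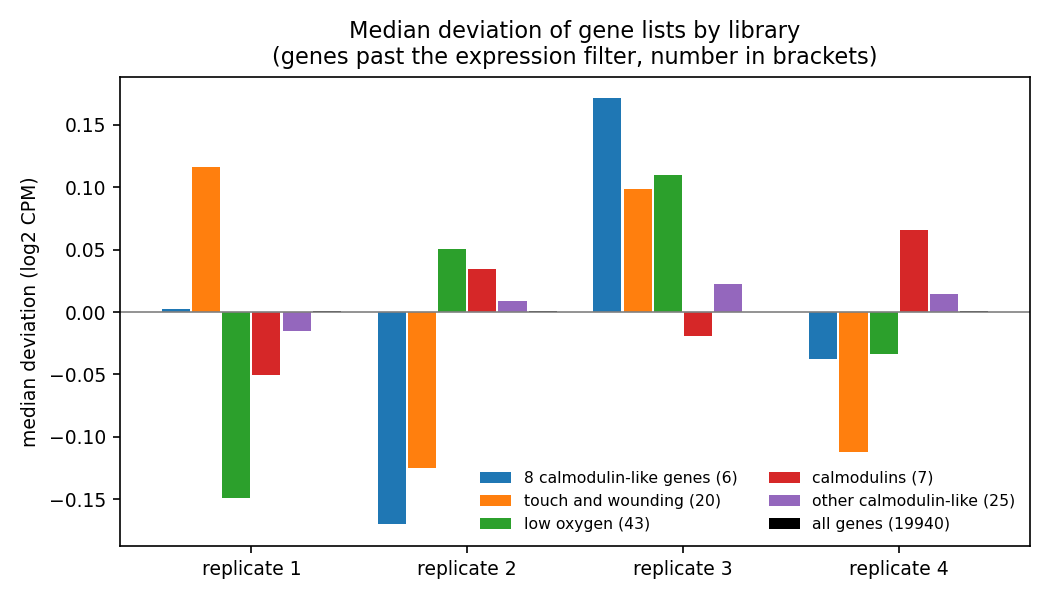
Median, by replicate, of the deviations in log2 CPM for 6 groups of genes that passed the expression filter, with their number in brackets. The members and the touch and wounding genes are both negative in replicate 2 and positive in replicate 3, while the low-oxygen genes are lowest in replicate 1.

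Among touch and wounding genes, the highest were EXO at 88.7 TPM, the kinase gene MPK3 at 69.2 TPM and the zinc finger gene SZF1 at 59.1 TPM. EXO, which promotes growth under brassinosteroid, had 2093, 1825, 2264 and 1798 counts in replicates 1 to 4, and SZF1 had 2432, 2170, 2489 and 1966. Those with the largest BCV above the trend were CAF1a, with 821, 504, 584 and 440 counts, CBF2, with 51, 21, 29 and 22, and ERF105, with 543, 382, 446 and 355. All 3 were highest in replicate 1, where TCH3 and CML38 lay near their own means. Among low-oxygen genes, the haemoglobin gene HB1 at 148 TPM had 2069, 2768, 2630 and 2155 counts, AT4G27450 at 129 TPM had 2404, 2969, 3344 and 2869, and AT3G03270 at 111 TPM had 3002, 3703, 3815 and 3394. Each was lowest in replicate 1, where CML38 was not. Furthest above the trend were the aquaporin gene NIP2;1 (AT2G34390), FHL and the phloem protein gene PP2-A13, all 3 lowest in replicate 1.

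The genes most like the members in pattern were sought among 8514 other genes past the filter that the chi-square test had called, by the root-mean-square (RMS) difference of deviations over the 4 libraries. Nearest to TCH2 were AT2G02910 (RMS difference 0.0201 on the log2 scale), AT2G31010 (0.0285) and AT4G03230 (0.0308). AT2G02910 had 271, 199, 278 and 215 counts in replicates 1 to 4. Nearest to TCH3 were AT5G24210 (0.0103), AT1G10740 (0.0103) and the ubiquitin-conjugating enzyme gene UBC19 (0.0122). Nearest to CML38 were PIS2 (0.00877), HSPRO2 (0.0136) and the kinase gene MPK7 (0.0220). HSPRO2 had 2986, 2746, 3674 and 3007 counts. Nearest to CML42 were AT4G08170 (0.00993), AT5G16450 (0.0113) and DOT1 (0.0154). For the mean profile of the 6 members they were ATTPPA (0.00770), UGP2 (0.0102) and AT2G05310 (0.0103). Each profile holds only 4 values, and the nearest of 8514 genes were picked, so the likeness is a description.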

How the data were processed

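The deposited table gives raw read counts per gene, one column per library, which the authors made with HISAT2 2.1.0 and featureCounts 1.6.0 on TAIR10, as the submitters' processing notes list them. No source used here gives the annotation release, the strandedness of counting or the treatment of multiply mapped reads. Columns were matched to labels by the prt6-1 name and replicate number. Gene models and sequences came from RefSeq on TAIR10.1, which gave lengths for 37882 of the identifiers and none for 3. TPM used counts plus 0.5 over merged exon length, and CPM used TMM-normalised library sizes. edgeR 4.0.16 and DESeq2 1.42.0 ran under R 4.3.3, with scipy 1.17.1 and Biopython 1.88 under Python 3.11.15. The edgeR expression filter kept 19940 genes. With a single group, the quasi-likelihood test has no difference to test, so variation between libraries was tested by chi-square and called at an adjusted p under 0.05, after a check on simulated counts. Nothing beyond the label says that replicates came from separate plates or sowings, so p-values concern these samples only. Those of the chi-square test set the counts against counting error and depend on depth, so they do not measure the size of a spread. The members, lists and tests were chosen with earlier results of these data known. Named genes are the 8 members, the 7 calmodulins, the 5 highest other calmodulin-like genes and any beside a member, the 3 highest and 3 most variable of each other list, and the 3 nearest in pattern. Genes that overlap or adjoin a member, and the organ and label checks, were named besides. Depth was 24743656 to 26155431 counts per library.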

Additional observations from a re-analysis of the deposited data

Results flagged for a closer look

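CML39 in replicate 1 stood apart from the other libraries, at 0.100 CPM with 0.5 added, from 2 counts against 1 in each of the others. A difference of 1 count set it apart. It was the only value so marked among 72 examined for a library outlying the other 3, where chance marks about 1 in 20.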

How the results depend on the processing

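Among alternative values of the main results, 191 kept their direction, call or value within the spread between replicates, a count within 1.5 times being taken as kept, and 3 did not. Among values of single genes, 138 were kept, 4 calls were lost (CML38 without replicate 2 or 3, CML42 without replicate 1 or 4), and the BCV of TCH3, CML38 or CML42 passed below its trend in 6. The scaling by DESeq2 size factors or total counts and the filters on low counts changed no call of a member. The number of members above the BCV trend was 4 with all libraries, from 2 to 4 when a replicate was left out and 2 of 8 with DESeq2 dispersions. All genes above the trend made up 34.1% with all libraries, 31.9% to 33.8% with a replicate left out and 24.4% with DESeq2, so the counts of 2 were near the share of all genes. The mean level of TCH3 was 110.0 TPM with the longest transcript length. Leaving out a replicate gave 3 varying members in each case, in place of 4, while the share of all genes called was 26.5%, 35.2%, 30.8% and 35.8% without replicates 1 to 4, against 42.7% with all. The median deviation of the members ranged from -0.19 to -0.10 in replicate 2 and from 0.10 to 0.19 in replicate 3 when other replicates were left out. In replicates 1 and 4 it took either sign. No paired analysis was possible because there is a single group. Without CML42 and CML43, a choice made after seeing the data, the median was -0.20 in replicate 2 and 0.19 in replicate 3. Depth limits CML37 and CML39, at 40 and 5 counts in all, for which no variation between libraries could be tested at 10 expected counts.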
